A study of Mus musculus with 29 samples.

Results

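The genes described here were 8 integrated stress response genes, Chac1, Ddit3, Ddit4, Atf3, Atf4, Trib3, Asns and Sesn2, taken by symbol from a table of 24421 genes. All 8 were found and all 8 passed the filter on low counts. They were chosen by a measured value: in these same libraries the log2 difference in Chac1 between dual ICI and untreated mice differed between weeks 3 and 5, so that contrast is given below as a description without a test. The data were bulk RNA-seq libraries of 29 mice, 1 per mouse, in 7 groups. All mice were female C57BL/6J mice, 5 to 6 weeks old at entry, with peritoneal dissemination of YTN16, a transplantable mouse gastric cancer cell line. RNA came from stripped peritoneum with or without nodules.

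On day 21 (3wk) there were 5 untreated mice, injected with PBS, and 5 dual ICI mice, given anti-PD1 and anti-CTLA4 antibodies IP. The day 35 (5wk) groups were 5 untreated mice, 5 given anti-PD1, 4 given anti-CTLA4 and 5 given both. The labels hold the 5 dual ICI mice as 1 group. They were split here into 2 uncured mice (#1 and #5) and 3 cured mice (#2, #3 and #4) by taking the number in the label as the mouse number of the study. The library identifiers in the labels run in separate number ranges for 3wk and 5wk mice. Whether the libraries were made or sequenced apart is not given in the sources used here. Such a difference, the further injections and time cannot be told apart. Differences between weeks are for this reason given only as values.

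The integrated stress response begins when one of the kinases PERK, GCN2, PKR or HRI phosphorylates the translation factor eIF2α, in response to unfolded protein in the ER, amino acid shortage, double-stranded RNA or heme shortage. General translation then falls, while the mRNA of the transcription factor ATF4 is translated more. ATF4 and its partners switch on genes of amino acid supply and of redox balance and, when the stress lasts, genes of cell death. In tumours the pathway is known for helping cells live with poor nutrient supply.

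Because ATF4 and C/EBP partners bind a shared composite element, the promoter windows of the 8 genes were searched for its core letters. The RefSeq windows of GRCm38.p6, from 250 bases before to 50 bases after the start, held TGATGNAA on either strand for 4 of the 8 genes, and for 1219 of all 27025 genes (4.51%). In Chac1 the match lay at bases -193 to -186, in Atf3 at -110 to -103, in Asns at -23 to -16 and in Trib3 at 14 to 21 after the start. The cAMP response element TGACGTCA, a palindrome searched once, was found in 0 of the 8 windows and for 549 of 27025 genes (2.03%). The ER stress element, searched on both strands, was also found in 0 of the 8, and for 37 of 27025 genes (0.137%), so no match overlapped another motif. A match is only a match of letters, and its absence says only that these letters are not in this window. The 4 stretches below are printed to show the element in its surroundings, 5′ to 3′ on the strand of the gene, with the matched bases in capitals.
Chac1: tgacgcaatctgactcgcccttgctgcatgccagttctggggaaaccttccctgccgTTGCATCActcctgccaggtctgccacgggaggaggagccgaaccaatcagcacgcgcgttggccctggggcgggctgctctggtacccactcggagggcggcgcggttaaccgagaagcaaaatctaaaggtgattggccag
Atf3: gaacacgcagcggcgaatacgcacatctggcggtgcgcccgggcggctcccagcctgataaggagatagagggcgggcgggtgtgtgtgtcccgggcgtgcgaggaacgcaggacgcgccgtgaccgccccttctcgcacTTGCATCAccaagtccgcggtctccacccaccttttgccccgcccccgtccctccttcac
Asns: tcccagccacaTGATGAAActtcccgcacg
Trib3: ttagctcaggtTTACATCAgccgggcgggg
The stretches are chr2:119350992-119351191 on the plus strand for Chac1, chr1:191183384-191183583 on the minus strand for Atf3, chr6:7693214-7693243 on the minus strand for Asns and chr2:152344028-152344057 on the minus strand for Trib3. The first 2 hold no annotated exon of their gene, all 30 bases of the Asns stretch lie in a GENCODE exon, and 5 of the 30 bases of the Trib3 stretch do.

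Library totals lay between 25989217 and 31219650 counts. The tissue in the labels is the same for every mouse, but its makeup was not. The 18 skeletal muscle markers took 21.1% to 22.9% of all counts in the 3 cured mice, 20.5% in anti-PD1 mouse 5 and 20.6% in untreated 5wk mouse 2, and 3.91% to 18.9% in the other mice. The 20 gastric epithelium markers took 0.00194% to 0.00839% of counts in the cured mice and 0.0054% in anti-PD1 mouse 5, against at least 0.0875% in every other mouse. Gkn1, Gkn2, Tff1 and Muc5ac, genes of gastric epithelium, had 0 counts in those 4 mice. They were low elsewhere too, with Gkn1 at a mean of 0.5224 CPM in untreated 5wk mice. Gkn2, Tff1 and Muc5ac failed the low-count filter between anti-PD1 and untreated 5wk mice. Zeros in such low genes add little to the share of all 20 markers. Anti-PD1 mouse 5 therefore stood apart from its group in makeup. The study describes a cure in the anti-PD1 group, but the labels give no outcome for these mice, so mouse 5 was kept as labelled. Values without it stand beside the member tests, the counts of genes called and the correlations. In bulk tissue, fewer cells of a type and less RNA per cell cannot be told apart.

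Levels between genes were compared per length, as CPM (counts scaled to library size with edgeR's TMM factors) divided by the kilobases of merged exon. Atf4 was first of the 8 in untreated mice, at 65.1 CPM per kb at 3wk and 76.7 at 5wk, and Trib3 was last at 1.43 and 1.69. Chac1 was the fifth of the 8 at 3wk with 9.15 CPM per kb, the third at 5wk with 34.6 and, in the cured mice, the second with 67.8. Asns went the other way, from 18.0 CPM per kb in untreated 5wk mice to 2.20 in cured mice. All later levels are CPM not divided by length.

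Chac1, on chromosome 2 (119351229-119354381 in GRCm38, plus strand), encodes a γ-glutamylcyclotransferase that breaks down glutathione. Its level was 6.94, 21.4, 16.4, 8.51 and 21.6 CPM in the 5 untreated mice at 3wk and 75.8, 79.7, 40.5, 11.8 and 39.2 CPM in the 5 dual ICI mice. Only dual ICI mouse 4 lay within the untreated range, and the other 4 lay above it. On the log2 scale the difference was 1.71 (SE 0.48, n = 5 and 5). None of the 8 genes lay wholly apart between these groups, as 3.18% of all genes tested did (1.83% higher and 1.35% lower). At 5wk the untreated mice had 33.0, 95.4, 54.4, 75.3 and 25.4 CPM, the uncured mice 21.7 and 21.6 CPM, and the cured mice 118, 95.6 and 119 CPM. Both uncured mice lay below all 5 untreated mice. In that comparison 8.33% of all genes lay wholly below and 9.22% wholly above, and of the 8 genes Chac1 lay below and Atf3 above. The 3 cured mice lay above all 5 untreated mice, by a small margin (95.58 against 95.43 CPM at the closest). Those values were from cured mouse 3 and untreated mouse 2, which had 1962 and 2347 counts before scaling, with TMM factors of 0.73 and 0.791. The log2 difference from untreated mice was -1.40 (SE 0.51) for the uncured and 0.98 (SE 0.39) for the cured mice. With the 5 dual ICI mice as the single group of the labels it was 0.42 (SE 0.58).

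The effect of dual ICI on Chac1 at 5wk minus that at 3wk, the contrast that chose the genes, was -3.11 (SE 0.83) on the log2 scale with the uncured mice and -1.30 (SE 0.80) with all 5 dual ICI mice. With the mouse number as a replicate block it was -1.99 with the uncured mice. The uncured mice of this contrast were set apart by their outcome, while the dual ICI mice at 3wk were not. Among the other 7 genes this contrast ranged from -0.41 (SE 0.32) for Atf4 to 0.65 (SE 0.28) for Sesn2 with the uncured mice. The untreated mice also differed between the weeks, and their mean Chac1 level was 15.0 ± 6.95 CPM (SD, n = 5) at 3wk and 56.7 ± 29.1 CPM (SD, n = 5) at 5wk. With the skeletal muscle score in the fit, an alternative added after seeing the data, the Chac1 difference was 1.56 (SE 0.23) at 3wk, -0.69 (SE 0.26) for the uncured mice and -0.29 (SE 0.30) for the cured mice against untreated mice, so the last of these changed sign. The contrast between weeks was then -2.10 (SE 0.43). The score was 13.23 to 13.47 in cured mice and 10.42 to 12.76 in untreated 5wk mice. The fit of cured against untreated mice therefore cannot separate the score from cure.

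Markers of other cells moved with these comparisons. At 3wk all 11 T cell markers measured were higher in dual ICI mice (0.00502% to 0.0122% of counts against 0.00219% to 0.00398%), none of them at 0 in either group, while skeletal muscle markers took 6.69% to 18.9% of counts against 7.53% to 15.4%. In the uncured mice all 18 skeletal muscle markers were lower than in untreated mice (5.46% to 7.71% of counts against 5.85% to 20.6%) and all 11 T cell markers were higher (0.00725% to 0.00778% against 0.00186% to 0.00361%). At 3wk all 12 macrophage markers were higher too, and 11 of 12 adipocyte markers were lower in both comparisons. The part of the T cell, macrophage and adipocyte markers in the Chac1 values was not tested.

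**Figure D1:**
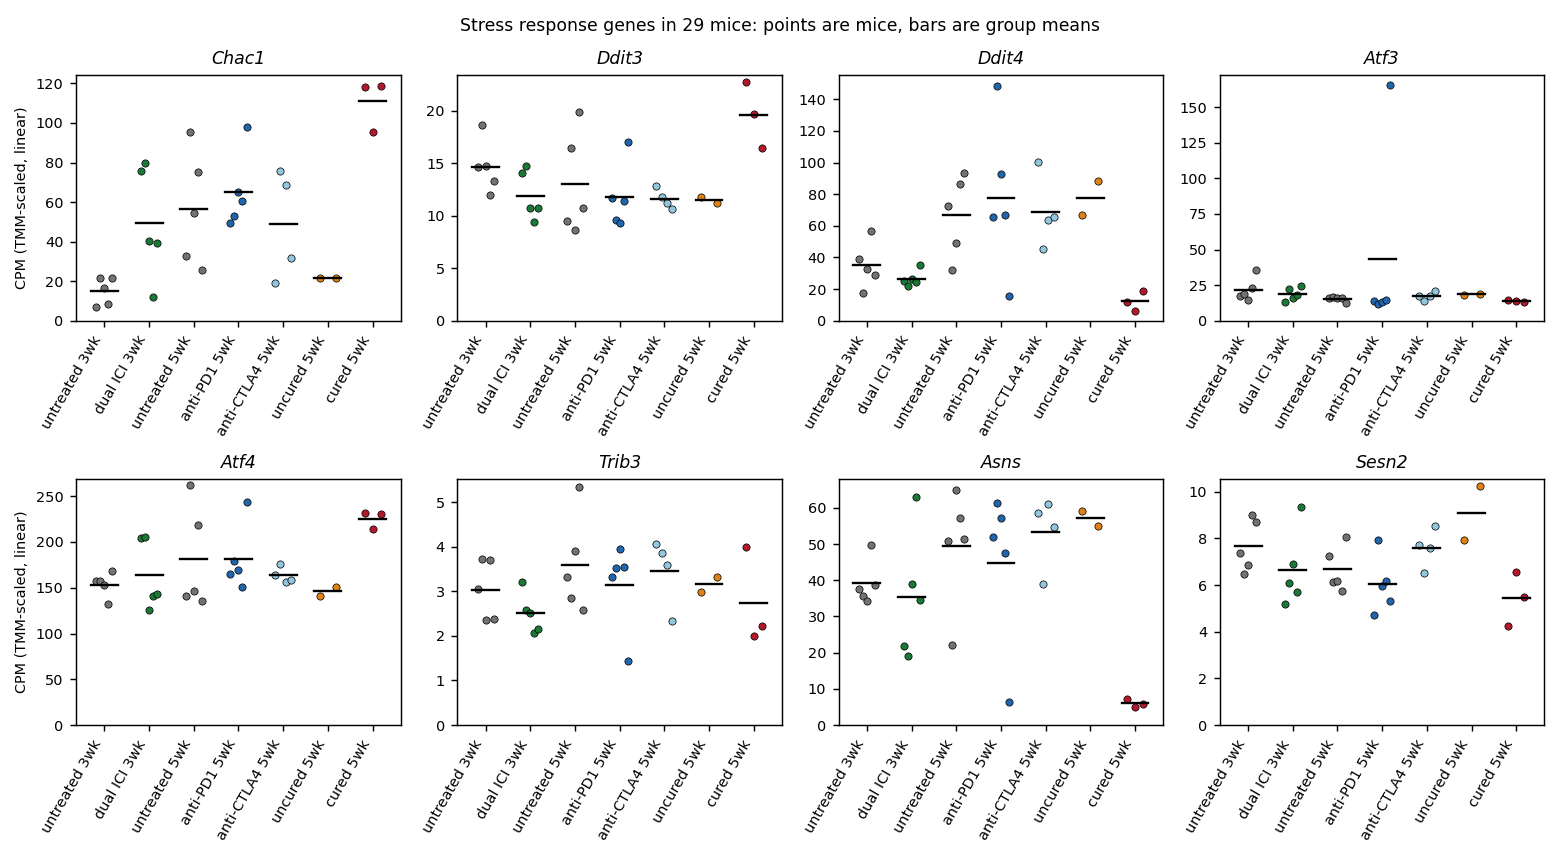
Level of each of the 8 genes in CPM (linear axis from 0) by group, with 1 point per mouse (29 mice) and a bar at the group mean. Chac1 is highest in the 3 cured mice at 95.6 to 119 CPM, where Asns is at 4.97 to 7.22 CPM, and 1 anti-PD1 mouse has 165 CPM of Atf3.

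Over the 7 groups, mean Chac1 fell in the order cured (111 ± 13.3 CPM, SD, n = 3), anti-PD1 (65.2 ± 19.2, n = 5), untreated 5wk (56.7 ± 29.1, n = 5), dual ICI 3wk (49.4 ± 28.3, n = 5), anti-CTLA4 (48.8 ± 27.7, n = 4), uncured (21.7 ± 0.0716, n = 2) and untreated 3wk (15.0 ± 6.95, n = 5). Of these neighbours, only the uncured and untreated 3wk mice did not overlap, and by a small margin (21.63 against 21.60 CPM at the closest). The anti-PD1 mice had 49.6, 52.8, 65.2, 60.7 and 97.7 CPM and the anti-CTLA4 mice 18.9, 75.7, 68.5 and 32.0 CPM. The highest anti-PD1 value was that of mouse 5, and it was the only monotherapy value within the range of the cured mice.

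The transcription factors of the pathway varied less. Atf4 (chromosome 15, 80255184-80257541, plus strand), its central activator, had 141, 262, 146, 219 and 136 CPM in untreated 5wk mice, 141 and 151 CPM in uncured mice and 231, 214 and 231 CPM in cured mice. The cured mice lay within the wide untreated range. At 3wk dual ICI and untreated mice overlapped, at 126 to 206 and 132 to 168 CPM. Atf4 activity is set mostly by translation, which RNA-seq does not measure.

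Ddit3 encodes CHOP, the factor linked to cell death under lasting stress, and lies on chromosome 10 (127290774-127296288, plus strand). Its level was 22.7, 19.7 and 16.4 CPM in cured mice and 9.53, 16.4, 8.65, 19.9 and 10.7 CPM in untreated 5wk mice. These ranges overlapped, with untreated mice 2 and 4 at the level of the cured ones. The annotation holds a second, short gene model of the same symbol that shares 105 exon bases with Ddit3, and Mars on the opposite strand shares 68, so reads there may have been split or added.

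Atf3, a stress-induced repressor and activator on chromosome 1 (191170296-191218039, minus strand), had 15.9, 16.9, 16.2, 16.1 and 12.6 CPM in untreated 5wk mice, 18.4 and 18.9 CPM in uncured mice and 14.7, 14.1 and 13.3 CPM in cured mice. Both uncured mice lay above the untreated range, by a small margin, and the cured mice within it. The anti-PD1 mice had 13.7, 11.5, 12.9, 14.3 and 165 CPM. The last value, from mouse 5, was the highest of all 29 mice, and it alone put the anti-PD1 mean of 43.5 ± 68.1 CPM (SD, n = 5) above the other groups. Without it the mean was 13.1 ± 1.21 CPM (SD, n = 4), and the log2 difference from untreated mice went from 1.48 (SE 0.76) to -0.26 (SE 0.14).

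The target genes split. Asns, asparagine synthetase, on chromosome 6 (7675169-7693254, minus strand), had 50.7, 22.2, 65.02, 57.3 and 51.5 CPM in untreated 5wk mice, 59.2 and 55.1 CPM in uncured mice and 7.22, 4.97 and 5.86 CPM in cured mice. The highest cured value was under the lowest untreated one, with a log2 difference of -3.01 (SE 0.34). The anti-PD1 mice had 51.9, 61.4, 57.1, 47.6 and 6.30 CPM, so that mouse 5 had an Asns level within the range of the cured mice. Untreated mouse 2, with 22.2 CPM, was also the untreated mouse with the largest share of muscle markers. At 3wk the untreated mice had 34.2 to 49.9 CPM, and the dual ICI mice spread more widely, at 21.8, 19.2, 39.0, 62.9 and 34.6 CPM.

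Ddit4 encodes REDD1, an inhibitor of mTORC1, and lies on chromosome 10 (59949669-59951834, minus strand). It had 72.2, 32.3, 49.3, 86.2 and 93.7 CPM in untreated 5wk mice, 66.7 and 88.5 CPM in uncured mice and 12.0, 6.29 and 18.6 CPM in cured mice. As with Asns, no cured mouse reached an untreated one, and the log2 difference was -2.42 (SE 0.43). The anti-PD1 mice had 65.9, 148, 92.5, 66.6 and 15.4 CPM, with mouse 5 again within the cured range.

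Sesn2, a leucine sensor upstream of mTORC1 (chromosome 4, 132492032-132510501, minus strand), and Trib3, a pseudokinase that restrains ATF4 and AKT (chromosome 2, 152337422-152344032, minus strand), were low in all groups. Sesn2 lay between 4.25 and 10.2 CPM over the 29 mice, with 7.93 and 10.2 CPM in the uncured mice. Trib3 lay between 1.45 and 5.33 CPM, and its lowest value was that of anti-PD1 mouse 5. No group of either gene stood apart from its neighbours in the order of means.

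The 3 comparisons of cured, anti-PD1 and anti-CTLA4 mice with untreated 5wk mice share the mice of the contrast that chose the genes, so their values for the members carry no test here. Against untreated mice, edgeR called 44.7% of 15816 genes in cured mice (adjusted p under 0.05). The members that lay wholly apart were Chac1 above, by the small margin already given, and Ddit4 and Asns below. Of all genes 47.2% lay wholly apart (20.3% above and 26.9% below). The calls were 18.0% of genes higher and 26.7% lower. The monotherapies differed from untreated mice by log2 values between -0.24 and 0.22 for the members, except Atf3 in anti-PD1 mice, and 0 of the 8 lay apart in either one (0.307% of genes in anti-PD1 mice, 0.0895% of them higher, and 0.513% in anti-CTLA4 mice).

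**Figure D2:**
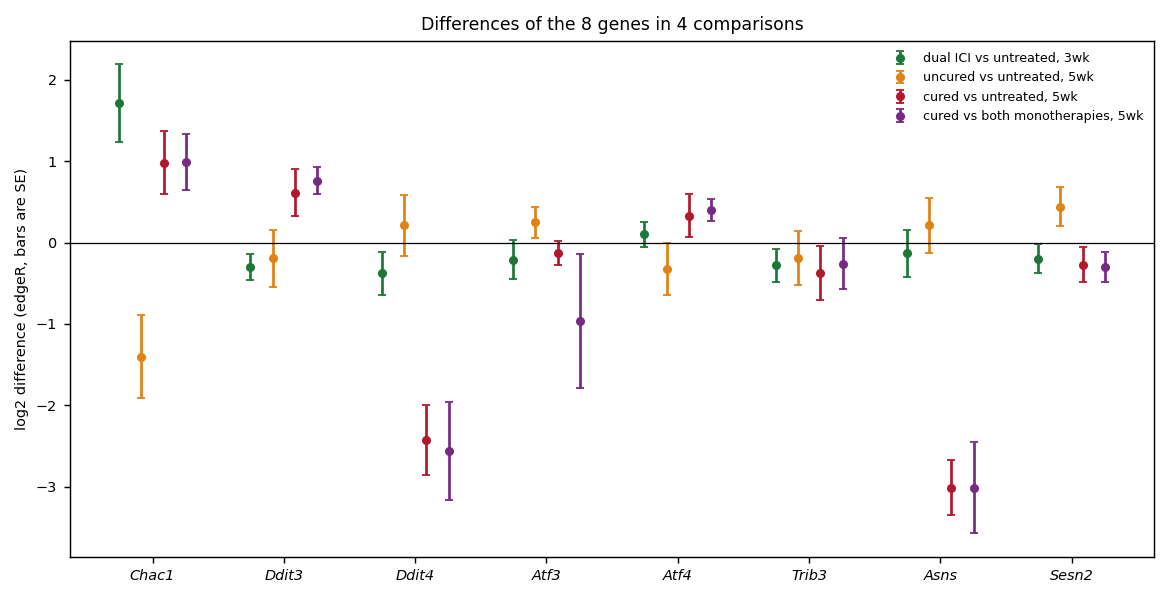
Log2 differences of the 8 genes from edgeR in 4 comparisons, with bars for the SE. Chac1 goes from -1.40 in uncured mice to 1.71 in dual ICI mice at 3wk, and Asns from 0.21 in uncured mice to -3.01 where cured mice are compared with the monotherapies.

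Cured mice against both monotherapies asked how the peritoneum of mice cured by both antibodies differed from that of mice given a single one. Among the latter was anti-PD1 mouse 5, with the makeup of cured mice. The comparison used none of the mice of the choosing contrast with uncured mice. The form of that contrast with all 5 dual ICI mice holds the 3 cured mice, however. The Chac1 p-value below is for this reason not independent of the choice. After TMM scaling, Chac1, Ddit3 and Atf4 were higher in cured mice and Ddit4 and Asns lower. The TMM factors were 0.698 to 0.73 in cured mice, 0.692 in anti-PD1 mouse 5 and 0.957 to 1.222 in the other monotherapy mice. Before scaling, Atf4 had 4516, 4403 and 4761 counts in cured mice and 4696 to 5879 in monotherapy mice. Atf4 was thus higher in cured mice only after this scaling. Ddit3 had 444, 404 and 339 counts before scaling against 308 to 431, largely within the monotherapy range. Chac1 had 2312, 1962 and 2455 against 636 to 2171, at the upper end of that range or above. Lower factors raise scaled levels. Rises in cured mice given below may thus depend on this scaling in part, most of all the small ones. In log2 units from edgeR's quasi-likelihood test with Benjamini-Hochberg adjustment over 16034 genes, Chac1 was 0.99 higher (SE 0.34, adjusted p = 0.0293, mean 111 against 57.9 CPM, n = 3 and 9), Ddit3 0.76 higher (SE 0.17, adjusted p = 0.00694) and Atf4 0.40 higher (SE 0.13, adjusted p = 0.0253). Ddit4 fell by 2.56 (SE 0.60, adjusted p = 0.00739, mean 12.3 against 73.7 CPM). Asns fell by 3.01 (SE 0.56, adjusted p = 0.00509, mean 6.02 against 48.7 CPM). For Atf3 the difference was -0.96 (SE 0.82, adjusted p = 0.326), for Trib3 -0.26 (SE 0.31, adjusted p = 0.489) and for Sesn2 -0.30 (SE 0.18, adjusted p = 0.179), none past the threshold.

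These 5 of 8 calls stand beside 57.7% of all genes tested in that comparison (25.8% higher and 31.9% lower), so the share of members called was near that of all genes. None of the 8 lay wholly apart between the groups (17.5% of all genes did, 6.92% with the cured mice higher), since anti-PD1 mouse 5 lay within or beyond the cured range for Chac1, Ddit3, Ddit4, Atf4 and Asns. Without that mouse the differences were 1.08 (SE 0.32) for Chac1, 0.84 (SE 0.12) for Ddit3, 0.46 (SE 0.08) for Atf4, -2.70 (SE 0.40) for Ddit4 and -3.16 (SE 0.18) for Asns, these 5 remained past the threshold, and 69.7% of all genes were called. Without any 1 of the 3 cured mice, Chac1 and Atf4 missed it, with adjusted p from 0.0571 to 0.0887 for Chac1 and 0.0567 to 0.0811 for Atf4. All 18 skeletal muscle markers were higher in cured mice (21.1% to 22.9% of counts against 3.91% to 20.5%) and all 17 gastric epithelium markers tested were lower (0.00194% to 0.00839% against 0.0054% to 0.539%). With the skeletal muscle score in the fit, none of the 5 passed: the differences were then 0.21 for Chac1, 0.45 for Ddit3, 0.19 for Atf4, -0.92 for Ddit4 and -1.74 for Asns, with edgeR adjusted p between 0.117 and 0.741. The score was 13.23 to 13.47 in cured mice, 13.31 in anti-PD1 mouse 5 and 9.56 to 12.27 in the other monotherapy mice. It thus nearly coincided with the groups, so this fit cannot separate the score from cure, and the loss of calls decides nothing.

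Between the monotherapies no member passed the test, nor did any of the 15736 genes (0% called by edgeR, 149 genes at an unadjusted p under 0.05, and 0 called by DESeq2). None of the 8 lay wholly apart (0.527% of genes did). The Chac1 difference, anti-PD1 minus anti-CTLA4, was 0.42 (SE 0.40, edgeR adjusted p = 1). For Atf3 it was 1.33 (SE 0.88), and -0.39 (SE 0.14) without anti-PD1 mouse 5. The other 6 differences lay between -0.32 and 0.18. Without that mouse Chac1 was at 0.24 (SE 0.38), Ddit4 at 0.45 (SE 0.31) and Asns at 0.04 (SE 0.15) where it had been at -0.24 (SE 0.51), and 0 genes were called (413 at an unadjusted p under 0.05).

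The genes around the members were taken from lists written with earlier results of these data known. At 3wk 0.574% of 15503 genes were called between dual ICI and untreated mice (0.471% higher and 0.103% lower), and 0 genes of the 9 pathway lists. Between uncured and untreated mice 0% of 16156 genes were called by edgeR, with 787 at an unadjusted p under 0.05 and 18 called by DESeq2. In that comparison 14 of the 15 glucocorticoid and fasting responsive genes had a lower value in uncured mice (median log2 difference -0.74 against -0.01 over all genes tested), and 15 of 17 ER chaperones a higher one (median 0.16), with 0 called in either list.

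In cured mice against both monotherapies most genes changed, 31.9% of all genes falling and 25.8% rising, so the counts of the lists below are read against these shares. With the skeletal muscle score in the fit 46 of 16034 genes were called, and 0 genes of the 9 lists, but that fit cannot separate the score from cure, as given above. Of the 20 ATF4 amino acid targets 13 fell and 2 rose (median log2 difference -0.83 against -0.057 over all genes). The cationic amino acid transporter Slc7a1 fell by 3.03 on the log2 scale (SE 0.58, edgeR adjusted p = 0.00509, mean 12.7 against 105 CPM) and the neutral amino acid transporter Slc1a4 by 2.72 (SE 0.52, edgeR adjusted p = 0.00509, 3.83 against 25.5 CPM). Slc7a11, the cystine importer that feeds glutathione synthesis, had 1 count in each of the 3 cured mice and 7 to 475 counts in the 9 monotherapy mice. Its scaled level was 208 times higher in the latter, with a 95% exact conditional interval from 71.2 to 1011.3 that covers counting error only.

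Glutathione genes, the substrate side of Chac1, gave 5 lower and 2 higher of 10 (57.7% of all genes were called), among them Gss (-1.52, SE 0.32, edgeR adjusted p = 0.00571) and Gclc (-1.09, SE 0.34, edgeR adjusted p = 0.0187), which build glutathione. Slc7a11 is counted in this list and in the one before. Chac2, the relative of Chac1, differed by 0.22 (SE 0.13) and did not pass. Of 17 ER chaperones and folding regulators 10 fell and 1 rose, led by the disulfide isomerase Pdia4 (-1.51, SE 0.28, edgeR adjusted p = 0.00509) and the degradation factor Edem1 (-1.01, SE 0.18, edgeR adjusted p = 0.00509).

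Of the 10 kinases, phosphatase subunits and initiation factors 5 fell and 1 rose, a share near the 57.7% of all genes. Eif2ak3, which encodes PERK, fell by 1.27 (SE 0.28, edgeR adjusted p = 0.00634), and Eif2b5, a subunit of the exchange factor that eIF2α phosphorylation inhibits, rose by 0.52 (SE 0.12, edgeR adjusted p = 0.00694). Of the 12 aminoacyl-tRNA synthetases 6 rose and 1 fell, with Yars 0.51 higher (SE 0.13, edgeR adjusted p = 0.0107). Mars also rose, by 0.52 (SE 0.14, edgeR adjusted p = 0.0113), and it is the gene that overlaps Ddit3. The rises of Eif2b5 and of the synthetases are small and may depend in part on the TMM scaling. Their counts before scaling were not compared. Among 8 bZIP partners of ATF4, Atf5 rose by 1.20 (SE 0.30, edgeR adjusted p = 0.00926) and Maf by 0.91 (SE 0.35, edgeR adjusted p = 0.0450), and Cebpd fell by 1.31 (SE 0.38, edgeR adjusted p = 0.0152).

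Of 16 further CHOP and ATF4 targets, 15 were tested, 6 fell and 1 rose, again near the share of all genes. The stress cytokine Gdf15 (0.332 against 1.17 CPM), the death receptor Tnfrsf10b (5.99 against 18.5 CPM) and the chromatin protein Nupr1 (21.7 against 62.6 CPM) were among those that fell. Of 12 immediate early genes 6 fell, among them Junb (-1.82, SE 0.28, edgeR adjusted p = 0.00509), and 2 rose, also near that share, among them Nr4a1 (1.46, SE 0.41, edgeR adjusted p = 0.0136). The 15 glucocorticoid and fasting responsive genes gave 4 higher, among them Klf9 (0.97, SE 0.27, edgeR adjusted p = 0.0131), and 2 lower, the metallothioneins Mt2 (-3.54, SE 0.75, edgeR adjusted p = 0.00575) and Mt1 (-2.59, SE 0.65, edgeR adjusted p = 0.00902). Without anti-PD1 mouse 5 the genes named here as changed stayed past the threshold in the same direction, and the amino acid targets again gave 13 lower and 2 higher, the glutathione genes 5 and 2, the ER chaperones 12 and 2, the kinase list 5 and 2, and the synthetases 2 and 6. The bZIP partners then gave 2 lower and 5 higher, the CHOP and ATF4 targets 6 and 3, the immediate early genes 6 and 3, and the glucocorticoid and fasting list 4 and 4. The makeup of muscle and epithelium given above moved with all these groups.

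Whether the 8 genes vary together between mice of the same group was asked with deviations from the group mean, in log2 CPM with a prior count of 2, over 29 mice. Of 44 relations, 28 between members and 16 with the skeletal muscle and gastric epithelium scores (the mean log2 CPM of each marker list), 20 had an adjusted p under 0.05 in two-sided permutation tests. Between members there were 4 positive and 5 negative ones. By the sign of r, Chac1, Ddit3 and Atf4 stood on one side and Asns and Ddit4 on the other. Asns passed against each gene of the first side. Ddit4 passed only against Chac1 (permutation adjusted p = 0.0557 with Ddit3 and 0.0584 with Atf4). The remaining negative relation was that of Ddit3 with Sesn2 (r = -0.49, permutation adjusted p = 0.0303). Without anti-PD1 mouse 5, Chac1 with Ddit3 (permutation adjusted p = 0.0568) and Ddit3 with Asns (0.0738) no longer passed.

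Atf4 and Ddit3 varied together most closely (r = 0.78, rho = 0.74, permutation p = 0.00122 and 0.0011, adjusted p = 0.00447 and 0.00484), and r was 0.72 without the 2 mice farthest from the median. Chac1 rose with Atf4 (r = 0.64, rho = 0.65, permutation p = 0.00088 and 0.00106, adjusted p = 0.00387 and 0.00484, r = 0.71 without the 2 farthest mice). Asns and Ddit4 varied together (r = 0.75, rho = 0.54, permutation p = 0.00107 and 0.00538, adjusted p = 0.00428 and 0.0132), with r = 0.49 without the 2 farthest mice. Chac1 and Asns moved in opposite directions (r = -0.53, rho = -0.54, permutation p = 0.00058 and 0.00308, adjusted p = 0.00284 and 0.00903, r = -0.48 without the 2 farthest mice). Within the 10 mice of week 3 and the 19 of week 5, r was 0.76 and 0.79 for Ddit3 and Atf4, 0.64 and 0.66 for Chac1 and Atf4, 0.28 and 0.84 for Ddit4 and Asns, and -0.85 and -0.43 for Chac1 and Asns. For Ddit4 and Asns, r was 0.48 over both weeks without anti-PD1 mouse 5, and the difference between the weeks was not tested.

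**Figure D3:**
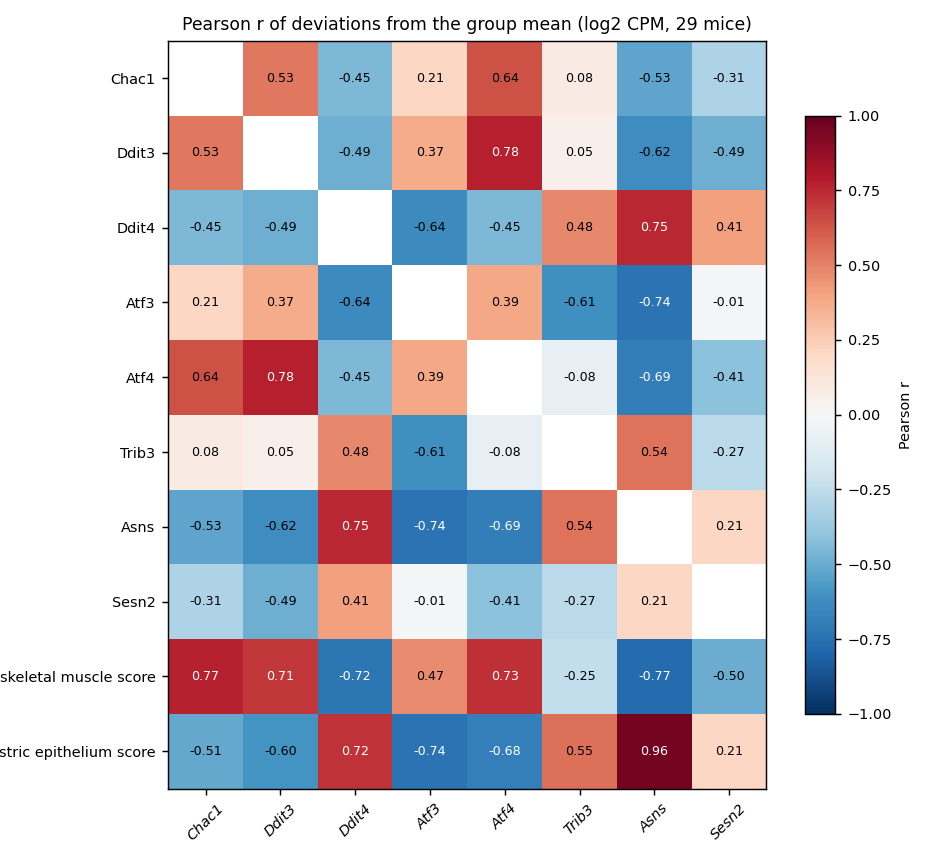
Pearson r, printed in each cell and shown as colour, of the deviations of log2 CPM from the group mean over 29 mice, between the 8 genes and with the skeletal muscle and gastric epithelium scores. Asns has r = 0.96 with the epithelium score, and Chac1 r = 0.77 with the muscle score.

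The same 2 sides followed tissue makeup, and Sesn2 followed the muscle score (r = -0.50, permutation adjusted p = 0.0248). The skeletal muscle score correlated with Chac1 (r = 0.77, rho = 0.75, permutation p = 5e-05 and 9e-05, adjusted p = 0.000733 and 0.00161) and inversely with Asns (r = -0.77, rho = -0.66, permutation p = 4e-05 and 0.00029, adjusted p = 0.000733 and 0.00319). Without the 2 farthest mice these were 0.76 and -0.77. Within weeks 3 and 5, r was 0.87 and 0.78 for Chac1 and -0.93 and -0.73 for Asns. The gastric epithelium score correlated with Asns at r = 0.96 (rho = 0.92, permutation p = 2e-05 and 1e-05, the latter the smallest these permutations can give, adjusted p = 0.000733 and 0.00044), with r = 0.88 without the 2 farthest mice and 0.89 and 0.97 within weeks 3 and 5. Trib3 and Atf3 passed with neither score. With the muscle score regressed out, 1 of 36 relations passed, that of Asns with the epithelium score. It had r = 0.91 and rho = 0.85 (permutation adjusted p = 0.00072 and 0.00288). Chac1 and Atf4 then had r = 0.18, and Chac1 and Asns turned to 0.15. Without anti-PD1 mouse 5, 16 of 44 passed, and r was 0.87 for Asns with the epithelium score. The scores and the genes of a mouse come from the same library.

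**Figure D4:**
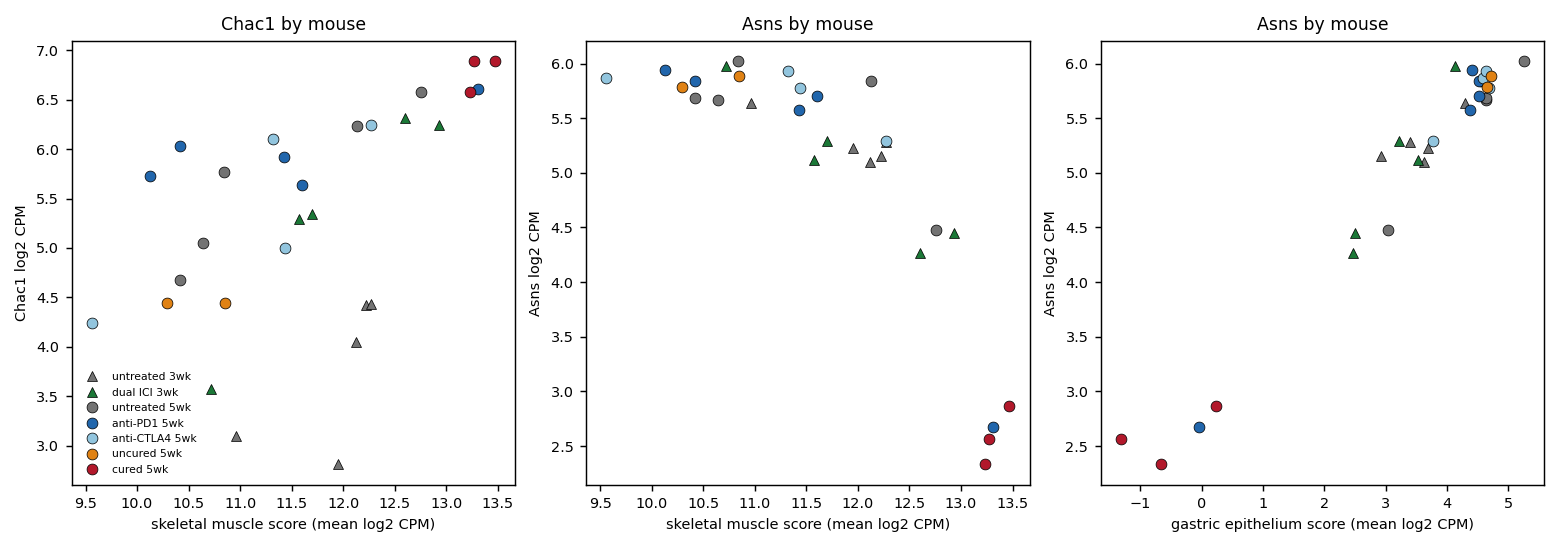
Log2 CPM of Chac1 and Asns in each of 29 mice against the skeletal muscle score and of Asns against the gastric epithelium score (both mean log2 CPM of a marker list), with triangles for 3wk and circles for 5wk mice. The 3 cured mice and 1 anti-PD1 mouse, with epithelium scores from -1.31 to 0.23, have the lowest Asns.

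The genes with a profile most like Chac1 were sought among 16752 genes by Pearson's r of log2 CPM over all 29 mice, as a description. The 5 nearest were Pik3ip1 (r = 0.90), Dbp (0.87), Tef (0.85), Gpn3 (0.85) and Klhl38 (0.84), with r of 0.78, 0.79, 0.86, 0.84 and 0.77 for deviations from the group means. Dbp and Tef encode PAR bZIP transcription factors under control of the circadian clock, and Pik3ip1 a negative regulator of PI3K. Of the other 7 members, Atf4 came nearest at r = 0.71 (rank 322 of 16752), then Ddit3 at 0.32, while Asns was at -0.55 and Sesn2 at -0.57. No time of day of collection is given in the sources used here.

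The mean level of Dbp was 8.66 ± 3.97 CPM in untreated and 29.7 ± 14.4 CPM in dual ICI mice at 3wk (SD, n = 5 each), 53.0 ± 27.6 CPM in untreated mice (SD, n = 5), 41.9 ± 7.19 CPM in uncured mice (SD, n = 2) and 187 ± 18.4 CPM in cured mice (SD, n = 3) at 5wk. The log2 difference was 1.77 (SE 0.41) at 3wk, where Chac1 had 1.71, -0.36 (SE 0.46) in uncured mice, where Chac1 had -1.40, and 1.83 (SE 0.37) in cured against untreated mice, where Chac1 had 0.98. Differences between the genes were not tested. In cured mice against the monotherapies all 5 of these genes were higher by edgeR, from 0.45 for Gpn3 (adjusted p = 0.00926) to 1.90 for Dbp (adjusted p = 0.00700). Of all genes tested 57.7% were called there, 25.8% of them higher in cured mice. The genes were picked for their likeness to Chac1, so these calls are no independent evidence on it. The small rise of Gpn3 may also depend in part on the TMM scaling. With the skeletal muscle score in the fit none of the 5 passed, with edgeR adjusted p from 0.114 for Tef to 0.298 for Gpn3. As for Chac1, that fit cannot separate the score from cure.

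**Figure D5:**
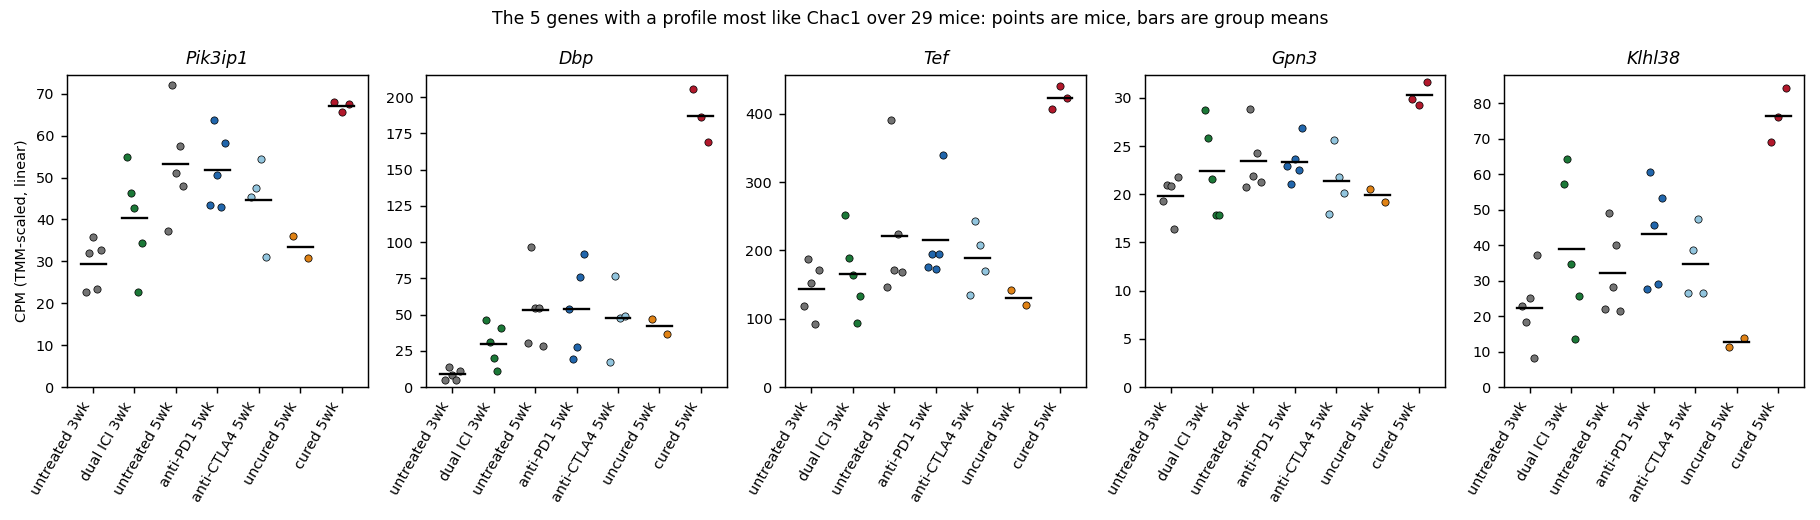
CPM (linear axis from 0) by group of the 5 genes with a profile most like Chac1, 1 point per mouse and a bar at the group mean. In each panel the 3 cured mice have the highest mean, as with Dbp at 187 CPM.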

How the data were processed

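Bulk RNA-seq libraries of 29 mice in 7 groups were analysed. Read counts were deposited by the authors as whole numbers for each gene symbol in each library, not normalized. According to the study's methods, paired-end reads were aligned to mm10 with STAR and counted per gene, while the submitters' processing notes name STAR 2.7.0f and featureCounts 1.6.4; which version made the table was not settled. Annotation and strand setting are not given in the sources used here, so overlapping genes are uncertain. Each library came from a separate mouse, and no 2 libraries of a group agreed within counting noise.

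The members and gene lists were chosen with earlier results of these data known. Genes named beside the 8 members were, per list and comparison, up to 3 with the largest log2 difference among those called (2 with the highest mean CPM where none was), and the 5 genes most like Chac1; Chac2, Gkn1, Gkn2, Tff1 and Muc5ac were named after their values were seen. Counts were tested with edgeR 4.0.16 (R 4.3.3; TMM, filterByExpr by group, quasi-likelihood F test, two-sided, Benjamini-Hochberg, adjusted p under 0.05) with only the groups compared in a fit. In simulated counts with 200 genes changed 4-fold, 167 (83.5%) were recovered with 5 false calls in the design of cured mice against monotherapies, and 149 (74.5%) with 10 false calls in anti-PD1 against anti-CTLA4 mice. In the 3wk design 185 (92.5%) were recovered with 16 false calls. The simulated mice held no shift in makeup and no mouse like anti-PD1 mouse 5. They therefore give no error rates for the real comparison of cured mice, where 57.7% of genes were called. Correlations used 100000 permutations of mice within groups (numpy 2.4.6), adjusted over 44. Gene positions are from GENCODE vM21 (GRCm38). Alternatives were DESeq2 1.42.0, upper-quartile normalization, no filter, at least 10 counts in every library, all 29 libraries in one fit, muscle markers left out, each mouse left out, the replicate number as a block, a prior count of 0.5, cured mice left out and muscle score regressed out. The muscle score as a covariate and leaving out anti-PD1 mouse 5 from levels, correlations and gene lists were added after seeing the data. Figures were drawn with matplotlib 3.10.9.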

Additional observations from a re-analysis of the deposited data

Results flagged for a closer look

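In 40 sets of a member and a group of 4 or 5 mice, 4 had a mouse whose gap to the nearest other exceeded Dixon's critical value, which chance gives in about 1 in 20. Of these, 3 were anti-PD1 mouse 5, with 165.3 CPM of Atf3, 6.299 CPM of Asns and 1.446 CPM of Trib3. The same mouse had 20.5% of its counts in skeletal muscle markers and 0.0054% in gastric epithelium markers, and the part of these in its values was not tested. The fourth was untreated 5wk mouse 5 with 12.6 CPM of Atf3, below the 4 others at 15.9 to 16.9 CPM.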

How the results depend on the processing

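Of the counts and the Chac1 contrast between weeks, recomputed under each alternative, 173 values stayed close to the main ones and 21 moved. Many of the 173 were counts of 0 genes that stayed at 0. Of the other values recomputed, 1585 stayed close, 26 became weaker, 2 stronger, 20 moved and 4 reversed. The genes called between dual ICI and untreated mice at 3wk numbered 89 and became 507 with DESeq2, 209 with the replicate block, 740 with the skeletal muscle score as covariate and 6 to 119 with 1 mouse left out, lowest without untreated mouse 5 (also 13, 52, 34 and 23 without untreated mice 1 to 4, and 16 and 30 without dual ICI mice 3 and 5). The share called higher was 82.0% and became 65.5% with DESeq2, 70.3% with the block and 57.0% with the covariate. DESeq2 called 56 genes in dual ICI and 18 in uncured mice against untreated mice at 5wk, where edgeR called 0. Against untreated mice, cured mice had 7067 genes called, and 4016 with the replicate block, 1611 with the muscle covariate and 4491 to 9388 with 1 mouse left out, lowest without cured mouse 3 (4515 without cured mouse 4). Against the monotherapies the 9255 became 46 with the covariate and 5873 to 11156 with 1 mouse left out, lowest without cured mouse 4. The muscle scores of cured mice lay above those of all untreated 5wk and monotherapy mice except anti-PD1 mouse 5. The covariate fits with cured mice therefore cannot separate the score from cure. The Chac1 contrast of -3.11 was -1.99 with the replicate block, -2.10 with the covariate and -3.36 to -2.86 with 1 mouse left out. In the fit of all 29 libraries Chac1 and Atf4 missed the threshold in cured mice against the monotherapies (edgeR adjusted p = 0.0547 and 0.0566). With the muscle score regressed out, 1 of 36 relations passed in place of 20 of 44, that of Asns with the gastric epithelium score. The value of r then turned to -0.04 for Chac1 and Ddit3, 0.23 for Chac1 and Ddit4, 0.15 for Chac1 and Asns and 0.11 for Chac1 and the gastric epithelium score. Where a value moved, the cause was not tested. The labels give no pairing of mice by replicate number. At 3wk same-numbered deviations of dual ICI and untreated mice correlated between -0.30 and 0.62, with 2 of 5 over 0.1. At 5wk these values were -0.43 to 0.74 for dual ICI (3 of 5), -0.70 to 0.43 for anti-PD1 (2 of 5) and -0.06 to 0.68 for anti-CTLA4 (3 of 4). Between the monotherapies they were -0.74 to 0.18 (2 of 4). These values do not settle whether the numbers pair the mice. The block changed the call of no tested member. With 2 uncured and 3 cured mice, small differences could not be seen.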
